A study of Mus musculus with 6 samples.

Results

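The genes described here are 10 members of the BCL2 family, the proteins that decide at the mitochondrial outer membrane whether a cell enters apoptosis. They were chosen by name, as the rows of a deposited gene table whose symbol is Bcl2, Bcl2l1, Mcl1, Bak1, Bid, Bad, Bcl2l11, Bbc3, Pmaip1 or Bik, and all 10 were found among its 24493 genes. Of these, 9 passed an expression filter of at least 1 TPM, the transcript abundance scaled to a fixed total of 1000000 per library, in at least 2 libraries, as did 11549 genes of the whole table; Bik did not. In this family, pro-survival proteins hold pore-forming effectors in check, and BH3-only proteins, which share with the others a short helix called BH3, release the effectors by binding the pro-survival proteins or by activating the effectors directly. The balance between the classes sets how readily a cell dies under stress, and in many carcinomas BCL-XL and MCL1 are the pro-survival members that cells depend on.

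The table holds RNA sequencing of mouse pancreatic tumour cells called KPCY, of strain C57BL/6, in 6 libraries. The cells carried a short hairpin RNA aimed at Pthlh, which encodes parathyroid hormone-related protein, or a control: shPthlh oligo #1 (hairpin 1, n = 2), shPthlh oligo #2 (hairpin 2, n = 2) or the non-targeting shNT (n = 2). All 3 groups went through transduction, and the comparison asks what lowering Pthlh does to these cells. The series speaks of 2 parental clones without tying a library to a clone, so hairpin and clone cannot be told apart here; the labels call the cells sorted from tumours in mice while the protocols describe culture in DMEM. No label says whether the replicates were separate cultures or animals, so every p-value reflects the spread among these 6 libraries alone, and that spread may be technical.

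Pthlh itself was at 0 and 0.106 TPM with hairpin 1, at 0.0423 and 0.263 TPM with hairpin 2, against 0.752 and 0.966 TPM with shNT, so all 4 knockdown libraries lay below both controls. In limma's fit without the filter, which Pthlh does not pass, its change was -0.82 with hairpin 1 (adjusted p = 0.00837) and -0.69 with hairpin 2 (adjusted p = 0.0583). The keratins Krt8, Krt18, Krt19 and Krt7 and the cadherin Cdh1 marked the cells as epithelial. Their lowest value over all 6 libraries was 232 TPM, for Cdh1. Of the other epithelial markers listed, Sox9 had 4.73 to 9.02 TPM and Epcam reached only 0.605 TPM at most. The leukocyte markers summed to at most 0.893 TPM the fibroblast markers to at most 0.511 TPM, the endothelial markers to at most 0.117 TPM and the erythroid markers to at most 2.2 TPM in any library. The acinar markers summed to 12.5 to 13.6 TPM with hairpin 1, 11.2 to 11.8 TPM with hairpin 2 and 14.7 to 19.8 TPM with shNT, nearly all of it Cela1, with Cpa1 at 0 throughout; its part in the results was not tested. Depth cannot be read from TPM and is unknown. Of all TPM, 20.4% and 19.7% went to the entry Mir6236 with hairpin 1, 23.4% and 21.4% with hairpin 2, and 34.1% and 24.3% with shNT. The median tested gene stood 0.11 higher with hairpin 1 and 0.09 higher with hairpin 2 than with shNT (log2). With small-RNA entries left out, those medians were -0.06 and -0.03, so a member near these values is near the typical gene.

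The members spanned a wide range of levels, and their order depended on the group. On the TPM scale, which is per length, the highest with hairpin 1 were Bak1 (91.0), Mcl1 (79.6) and Bad (45.2), followed by Bcl2l1 (29.4), Bid (24.7) and Pmaip1 (21.1), with Bcl2l11 (4.89), Bbc3 (4.85) and Bcl2 (3.69) far below. With hairpin 2 the mean levels were 89.4 for Bak1, 83.1 for Mcl1, 54.7 for Bcl2l1, 37.1 for Bad, 33.0 for Bid, 18.4 for Pmaip1, 7.11 for Bcl2l11, 6.55 for Bbc3 and 5.86 for Bcl2. With shNT they were 82.9 for Mcl1, 77.2 for Bak1, 57.9 for Bcl2l1, 31.6 for Bad, 26.1 for Bid, 20.8 for Pmaip1, 8.08 for Bbc3, 7.0 for Bcl2l11 and 6.65 for Bcl2. Bad stood above Bcl2l1 with hairpin 1 and below it in the other groups, each time without overlap of the libraries. The neighbours Mcl1 and Bak1 overlapped with shNT, as did Bcl2l11 and Bcl2, and Bcl2l11 and Bbc3 overlapped with hairpin 1. Bik, a BH3-only protein of the endoplasmic reticulum, was listed at 0.0674 and 0 TPM with hairpin 1, at 0 and 0.0656 TPM with hairpin 2, and at 0 in both shNT libraries, and no fold is given for it.

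**Figure D1:**
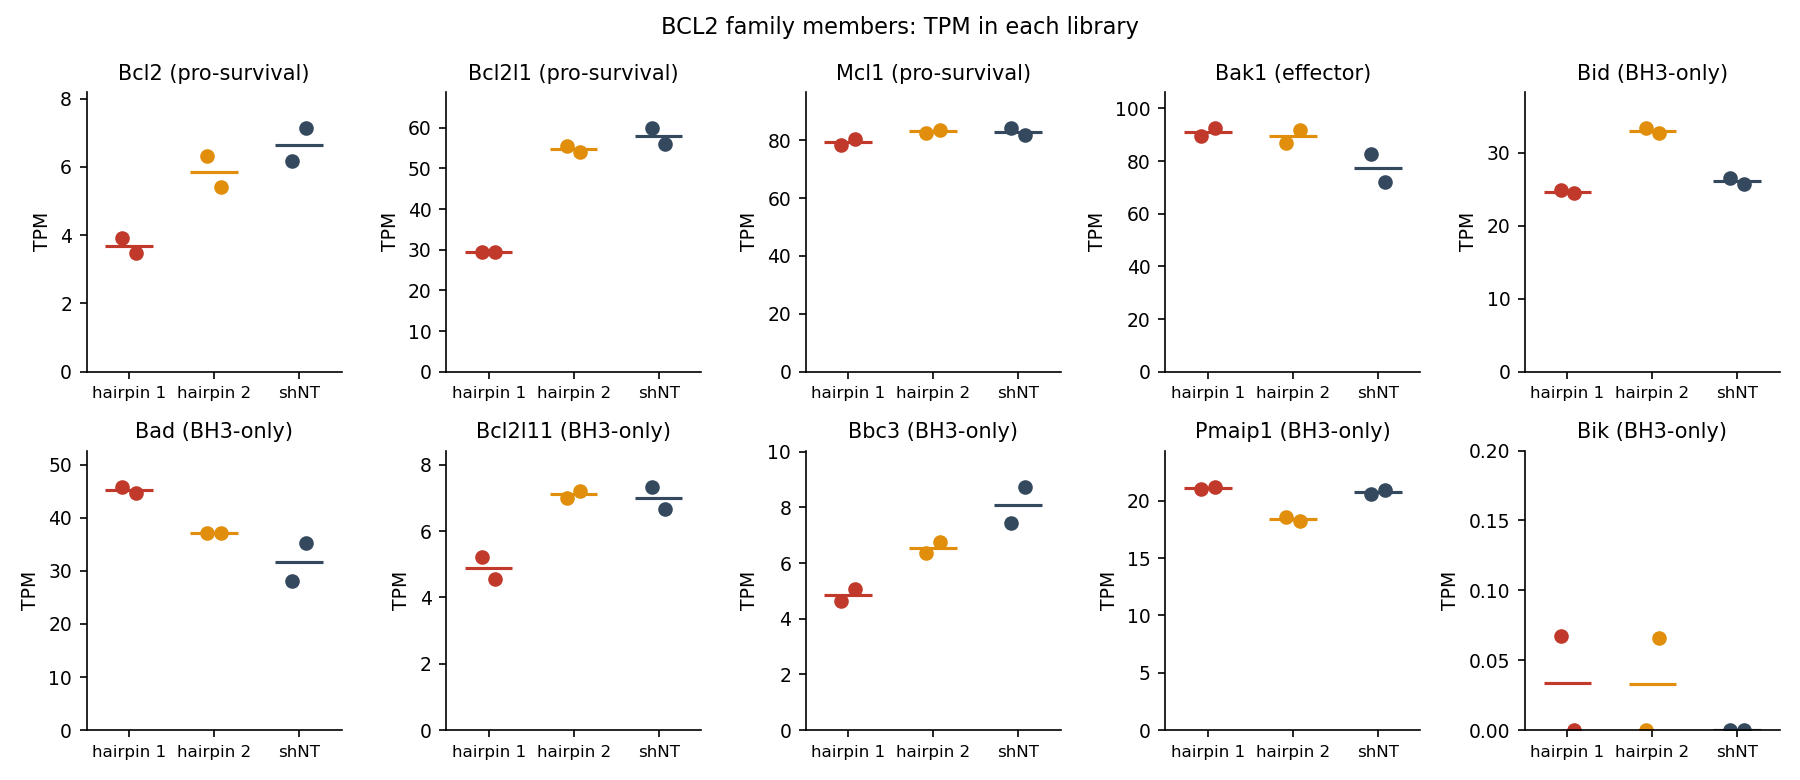
TPM of the 10 members in each library (points) with the mean of each group (lines), for hairpin 1, hairpin 2 and shNT; each panel starts at 0 and has its own scale. The hairpin 1 points of Bcl2, Bcl2l1, Bcl2l11 and Bbc3 lie below all others, whereas those of Mcl1 stay between 78.5 and 80.6 TPM, close to the rest.

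With hairpin 1, 4 members fell and 2 rose. The 4 that fell were Bcl2l1, Bcl2, Bbc3 and Bcl2l11, a pair of pro-survival genes and a pair of BH3-only genes, and the 2 that rose were Bad and Bak1. By limma's moderated test over all 11549 genes, with Benjamini-Hochberg adjustment and a threshold of 0.05, 50.2% of genes were called in this comparison, 32.1% higher and 18.1% lower, so the count of 6 of 9 tested members stands against a background of about 1 gene in 2. The split of members depended on the scaling: median-ratio scaling gave 1 higher and 6 lower, quantile normalization and chromosome centring each gave 1 higher and 5 lower, and the table without small-RNA entries gave 1 higher and 4 lower. Without hairpin 1 replicate 1, 0 rose and 4 fell, with 5 members of either direction at an unadjusted p under 0.05. The median change of the 9 members was -0.08, against 0.11 for all tested genes (log2 of TPM + 1 throughout). Without hairpin 1 replicate 1 the number of all genes called was 3704, and without hairpin 1 replicate 2 it was 3710, in place of 5798.

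The promoters of the 4 genes that fell are shown because each was called lower with hairpin 1 on the deposited scaling. None of them was called with hairpin 2. RefSeq (GRCm38.p6) gave a promoter window, from 250 bases before to 50 after a start site, for 8 of the 10 members; where a gene had several, the window nearest the GENCODE gene start was taken. They are chr1:106714241-106714540 (minus strand) for Bcl2, chr2:152831679-152831978 (minus strand) for Bcl2l1, chr2:128125788-128126087 (plus strand) for Bcl2l11 and chr7:16309333-16309632 (plus strand) for Bbc3. Each is written 5′ to 3′ in the direction of the gene, with matches to 6 searched motifs in capitals.
Bcl2: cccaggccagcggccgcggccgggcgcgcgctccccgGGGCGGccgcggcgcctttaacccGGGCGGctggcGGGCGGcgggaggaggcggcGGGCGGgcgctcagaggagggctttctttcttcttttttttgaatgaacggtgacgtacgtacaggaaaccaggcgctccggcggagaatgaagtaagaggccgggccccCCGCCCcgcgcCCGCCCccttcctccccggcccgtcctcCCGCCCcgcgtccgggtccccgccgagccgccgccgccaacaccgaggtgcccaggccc
Bcl2l1: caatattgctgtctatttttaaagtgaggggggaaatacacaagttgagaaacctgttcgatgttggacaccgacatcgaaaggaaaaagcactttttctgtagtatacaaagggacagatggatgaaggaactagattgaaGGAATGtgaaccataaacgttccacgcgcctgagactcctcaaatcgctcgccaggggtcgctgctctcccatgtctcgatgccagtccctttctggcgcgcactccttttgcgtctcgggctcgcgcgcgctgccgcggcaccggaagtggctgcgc
Bcl2l11: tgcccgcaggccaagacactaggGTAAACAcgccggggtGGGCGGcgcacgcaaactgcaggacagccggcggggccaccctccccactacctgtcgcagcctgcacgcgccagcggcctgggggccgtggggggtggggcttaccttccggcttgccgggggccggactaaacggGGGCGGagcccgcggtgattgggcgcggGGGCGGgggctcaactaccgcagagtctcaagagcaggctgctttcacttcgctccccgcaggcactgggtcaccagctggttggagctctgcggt
Bbc3: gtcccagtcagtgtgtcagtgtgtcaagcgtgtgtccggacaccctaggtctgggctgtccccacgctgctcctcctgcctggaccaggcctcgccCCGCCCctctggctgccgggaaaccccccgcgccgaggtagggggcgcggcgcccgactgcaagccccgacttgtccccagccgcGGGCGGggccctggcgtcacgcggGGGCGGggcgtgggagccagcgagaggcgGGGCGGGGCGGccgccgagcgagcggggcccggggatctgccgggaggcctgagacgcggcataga
The motifs, searched on both strands, were the cAMP response element TGACGTCA, the AP-1 site TGANTCA, the TEAD site GGAATG, the E-box CACGTG, the FOXO site GTAAACA and the GC box GGGCGG. The capitals in Bcl2 mark 7 GC boxes and those in Bbc3 5, of which the last 2 overlap; both windows are 76.0% G and C. The capitals in Bcl2l11 mark 1 FOXO site and 3 GC boxes, and the only capitals in Bcl2l1 are 1 TEAD site, at position -108 from the start site. GC boxes occur in 35.7% of 32851 such windows, TEAD sites in 14.7% and FOXO sites in 3.65%. The cAMP response element, found in 1.79% of windows, and the AP-1 site, found in 7.81%, were in none of the 8 member windows. The TEAD site is also in the Mcl1 window, and GC boxes are also in those of Mcl1, Bid and Bad, none of which were called lower with hairpin 1 on the deposited scaling. A match describes letters in a window and shows no binding.

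Bcl2l1 encodes BCL-XL, a pro-survival protein that binds both effectors and BH3-only proteins, and lies on chromosome 2 (152780668 to 152831728, minus strand, mm10). It had 29.4 and 29.4 TPM with hairpin 1, 55.4 and 53.9 TPM with hairpin 2, against 59.8 and 56.0 TPM with shNT. Both hairpin 1 libraries lay far below all others, and the hairpin 2 libraries lay just below both shNT libraries. With hairpin 1 Bcl2l1 fell by 0.95 ± 0.05 (log2, SE; limma adjusted p = 0.000168), to 50.8% of the shNT mean on the TPM scale, which put it at percentile 2.5 of all tested changes. With hairpin 2 its change was -0.08 (95% interval -0.20 to 0.04; limma adjusted p = 0.298), at percentile 17.9. The difference itself, hairpin 2 minus hairpin 1, was 0.87 ± 0.05 (limma adjusted p = 0.000274), and both this and the fall with hairpin 1 passed under all 18 alternatives tried.

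Bcl2l1 had the widest range of group means among the members, 0.95 on the log2 scale, and its profile over the 6 libraries was closest to those of Ubash3b, Nrarp and Sox4. Likeness was measured as the root mean square difference between centred log2 profiles, which was 0.037, 0.041 and 0.042 for these genes. Nrarp, for example, stood at 20.8 and 20.3 TPM with hairpin 1, 39.4 and 37.3 TPM with hairpin 2, against 41.1 and 41.9 TPM with shNT.

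Bcl2 (chromosome 1, 106538178 to 106714274, minus strand) encodes the founding pro-survival protein of the family. It had 3.92 and 3.46 TPM with hairpin 1, 6.32 and 5.40 TPM with hairpin 2, against 6.17 and 7.13 TPM with shNT. The hairpin 1 libraries were the lowest, and the hairpin 2 and shNT libraries overlapped. Bcl2 fell by 0.70 ± 0.11 with hairpin 1 (log2, SE; limma adjusted p = 0.00389), a call kept under all 18 alternatives. With hairpin 2 the change was -0.16 (95% interval -0.43 to 0.11; limma adjusted p = 0.350). The hairpins differed by 0.55 ± 0.11, hairpin 2 higher (limma adjusted p = 0.0121), a call lost without hairpin 1 replicate 2 (limma adjusted p = 0.0715) or hairpin 2 replicate 1 (limma adjusted p = 0.0694), in a range of 0.00517 to 0.0715 over the alternatives.

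Mcl1 (chromosome 3, 95658788 to 95663176, plus strand), a pro-survival protein with a very short half-life that binds BAK and the BH3-only proteins BIM and NOXA, had no call in any of the comparisons. It had 78.5 and 80.6 TPM with hairpin 1, 82.5 and 83.6 TPM with hairpin 2, against 84.1 and 81.7 TPM with shNT. The hairpin 1 libraries were lowest by a narrow margin, and the hairpin 2 and shNT libraries overlapped. The change was -0.06 with hairpin 1 (95% interval -0.16 to 0.05; limma adjusted p = 0.285) and 0.00 with hairpin 2 (95% interval -0.10 to 0.11; limma adjusted p = 0.971). Relative to the median tested gene these were -0.16 and -0.08. After median-ratio scaling, which brings the median tested gene to 0.02 with hairpin 1, the hairpin 1 change of Mcl1 was -0.15 and passed (limma adjusted p = 0.0452), in a range of 0.0107 to 0.634 over the alternatives.

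With Bcl2l1 and Bcl2 lower and Mcl1 near its control level, the make-up of the pro-survival transcripts among the listed members differed. The pro-survival members summed to 112 and 113 TPM with hairpin 1, 144 and 143 TPM with hairpin 2, against 150 and 145 TPM with shNT. Mcl1 made up 70.2% and 71.0% of that sum with hairpin 1, 57.2% and 58.5% with hairpin 2, and 56.0% and 56.4% with shNT. The Mcl1 to Bcl2l1 ratio of TPM was 2.67 and 2.74 with hairpin 1, 1.49 and 1.55 with hairpin 2, and 1.41 and 1.46 with shNT. The BH3-only members summed to 102 and 99.9 TPM with hairpin 1, 102 and 102 TPM with hairpin 2, against 90.0 and 97.2 TPM with shNT. Bcl2l2, which encodes the pro-survival protein BCL-W and is outside these sums, had 17.7 and 16.2 TPM with hairpin 1, 15.8 and 14.2 TPM with hairpin 2, against 12.7 and 14.97 TPM with shNT. Its change with hairpin 1 was 0.28 and was not called (limma adjusted p = 0.0614). All these sums are on the deposited scaling, in which Mir6236 took 34.1% and 24.3% of TPM with shNT. It took 20.4% and 19.7% with hairpin 1 and 23.4% and 21.4% with hairpin 2. Differences in the sums between groups therefore depend on this entry, and the sums were not recomputed without it. The Mcl1 percentages and ratios are taken within a library and do not depend on it. These sums are descriptions of RNA, untested, and say nothing of protein.

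**Figure D2:**
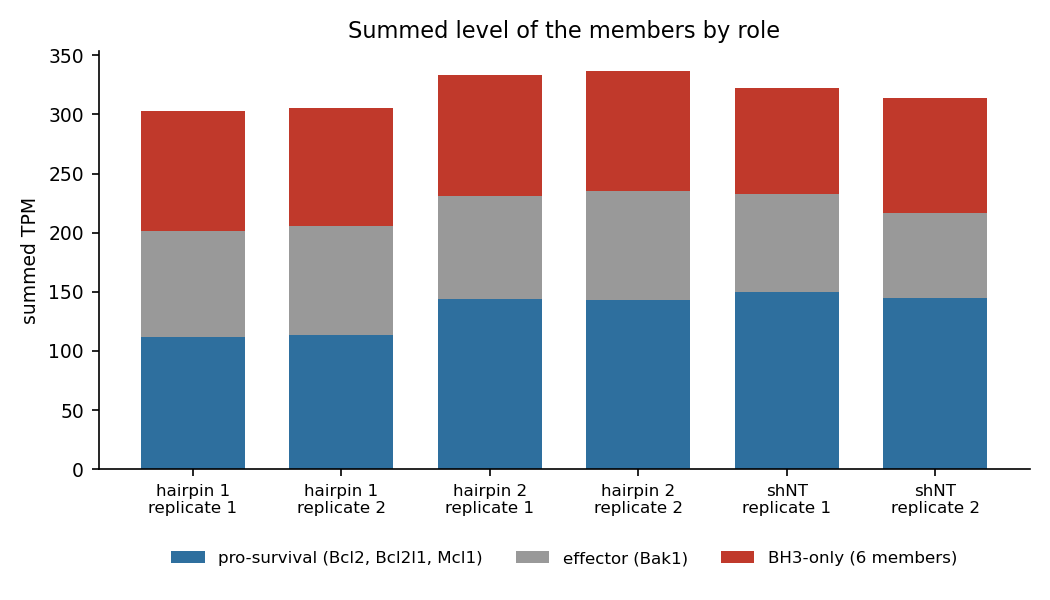
Summed TPM of the members by role on the deposited scaling, one bar per library, stacked from pro-survival members (base) to BH3-only members (top). The pro-survival part is 112 and 113 TPM in the hairpin 1 libraries and between 143 and 150 TPM in the other 4.

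Bak1 (chromosome 17, 27019810 to 27029009, minus strand) encodes BAK, one of the effectors that form pores in the outer membrane. It had 89.6 and 92.4 TPM with hairpin 1, 86.9 and 91.9 TPM with hairpin 2, against 82.5 and 71.9 TPM with shNT. In deposited TPM all 4 knockdown libraries lay above both controls, and the controls were the most spread. The entry Mir6236 took 34.1% and 24.3% of TPM in these controls and 19.7% to 23.4% in the knockdown libraries. This order and spread therefore depend on that entry, and they were not recomputed without it. Bak1 rose by 0.24 ± 0.07 with hairpin 1 (log2, SE; limma adjusted p = 0.0439); with hairpin 2 its change was 0.21 (limma adjusted p = 0.122). The median gene of chromosome 17 stood at 0.20 with hairpin 1 and at 0.17 with hairpin 2, and after each chromosome was centred the Bak1 change with hairpin 1 was 0.03 (limma adjusted p = 0.743). Of the 18 alternatives, 13 lost the hairpin 1 call and 1 turned its sign. Among those that lost it were median-ratio scaling (limma adjusted p = 0.181) and each fit with a library other than shNT replicate 1 left out. The change was 0.14 without shNT replicate 2 and 0.33 without shNT replicate 1. The limma adjusted p of the lost calls were 0.0669 without shNT replicate 2, 0.122 and 0.176 without either hairpin 1 library and 0.0740 and 0.0744 without either hairpin 2 library, in a range of 0.00494 to 0.743. With hairpin 2 a call appeared without shNT replicate 1 (0.31, limma adjusted p = 0.0338), and the change was 0.11 without shNT replicate 2 (0.165), in a range of 0.0338 to 0.844. Ggnbp1, on the other strand, overlaps Bak1, and no strand setting of the quantification is stated.

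Bad, Bid, Bcl2l11, Bbc3 and Pmaip1 are the BH3-only members with measurable RNA, and they did not move as a group. Bad (chromosome 19, 6941861 to 6951899, plus strand), which binds BCL-XL and BCL2 and is held inactive when kinases such as AKT and protein kinase A phosphorylate it, had 45.8 and 44.6 TPM with hairpin 1, 37.1 and 37.2 TPM with hairpin 2, against 28.1 and 35.2 TPM with shNT. The hairpin 1 libraries were highest, the hairpin 2 libraries came next, and none overlapped the controls. Bad rose by 0.51 ± 0.10 with hairpin 1 (log2, SE; limma adjusted p = 0.00954), against a median of -0.07 for the genes of its chromosome, and passed under 17 of 18 alternatives. The exception was the fit without hairpin 1 replicate 1 (limma adjusted p = 0.0565), in a range of 0.000401 to 0.0565. With hairpin 2 its change was 0.23 (95% interval -0.02 to 0.49; limma adjusted p = 0.178), and it was 0.39 and called without shNT replicate 2 (limma adjusted p = 0.00632) but 0.077 without shNT replicate 1 (0.300), in a range of 0.00632 to 0.594. The 2 hairpins differed by -0.28 for Bad, hairpin 2 lower, short of the threshold (95% interval -0.53 to -0.02; limma adjusted p = 0.0804). This difference passed without shNT replicate 1 (limma adjusted p = 0.00313) or shNT replicate 2 (0.00312), in a range of 0.00301 to 0.246. Gpr137 overlaps Bad on the other strand.

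Bbc3 (chromosome 7, 16308393 to 16318205, plus strand) encodes PUMA, a BH3-only protein and p53 target that binds all pro-survival members. It had 4.64 and 5.06 TPM with hairpin 1, 6.36 and 6.74 TPM with hairpin 2, against 7.43 and 8.74 TPM with shNT. The 3 groups did not overlap, with hairpin 1 lowest and shNT highest. Bbc3 fell by 0.63 ± 0.09 with hairpin 1 (log2, SE; limma adjusted p = 0.00331), at percentile 5.7 of all changes, and passed under all 18 alternatives; the median gene of its chromosome stood at 0.22. With hairpin 2 the change was -0.26 (95% interval -0.49 to -0.03; limma adjusted p = 0.119), at percentile 5.8 of all hairpin 2 changes and short of the threshold in every alternative. The hairpins differed by 0.37 ± 0.09, hairpin 2 higher (limma adjusted p = 0.0260), a call that ended when either hairpin 1 library (limma adjusted p = 0.127 and 0.0700) or either hairpin 2 library (0.0834 and 0.125) was left out, in a range of 0.0119 to 0.127.

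Bcl2l11 (chromosome 2, 128126038 to 128162547, plus strand) encodes BIM, a BH3-only protein that FOXO factors induce. It had 5.23 and 4.56 TPM with hairpin 1, 7.0 and 7.21 TPM with hairpin 2, against 7.33 and 6.67 TPM with shNT. The hairpin 1 libraries were lowest, and the hairpin 2 libraries lay between the controls. Bcl2l11 fell by 0.44 ± 0.08 with hairpin 1 (log2, SE; limma adjusted p = 0.00780), a call that ended after chromosome centring (-0.17, limma adjusted p = 0.153, in a range of 0.00317 to 0.153). With hairpin 2 the change was 0.02 (95% interval -0.19 to 0.23; limma adjusted p = 0.883). The hairpins differed by 0.46 ± 0.08, hairpin 2 higher (limma adjusted p = 0.00894), and by 0.18 after chromosome centring (limma adjusted p = 0.148). That difference was also lost without hairpin 1 replicate 2 (limma adjusted p = 0.0503) or hairpin 2 replicate 2 (0.0571), in a range of 0.00634 to 0.148.

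Bcl2l1 and Bcl2l11 share chromosome 2, whose genes stood low as a whole with hairpin 1. The median of its 925 tested genes was -0.27 with hairpin 1, the lowest of the 19 autosomes and X, and 53.0% of them were called lower, against 18.1% of all genes; with hairpin 2 the median was 0.01. Within 5 Mb of Bcl2l1, the median of 93 tested neighbours was -0.28 with hairpin 1, and 6 of them fell as far as Bcl2l1 or further. Relative to these neighbours Bcl2l1 was at -0.68, and after chromosome centring its change was also -0.68 (limma adjusted p = 0.000453, in a range of 1.69e-05 to 0.00411 over the alternatives). Within 5 Mb of Bcl2l11, the median of 79 neighbours was -0.23, 20 of them were as low as Bcl2l11, and Bcl2l11 was at -0.21 relative to them. The part of the chromosome-wide shift in these changes was otherwise not tested. The other members that fell with hairpin 1 lay on chromosomes 1 and 7, with medians of -0.00 and 0.22.

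**Figure D3:**
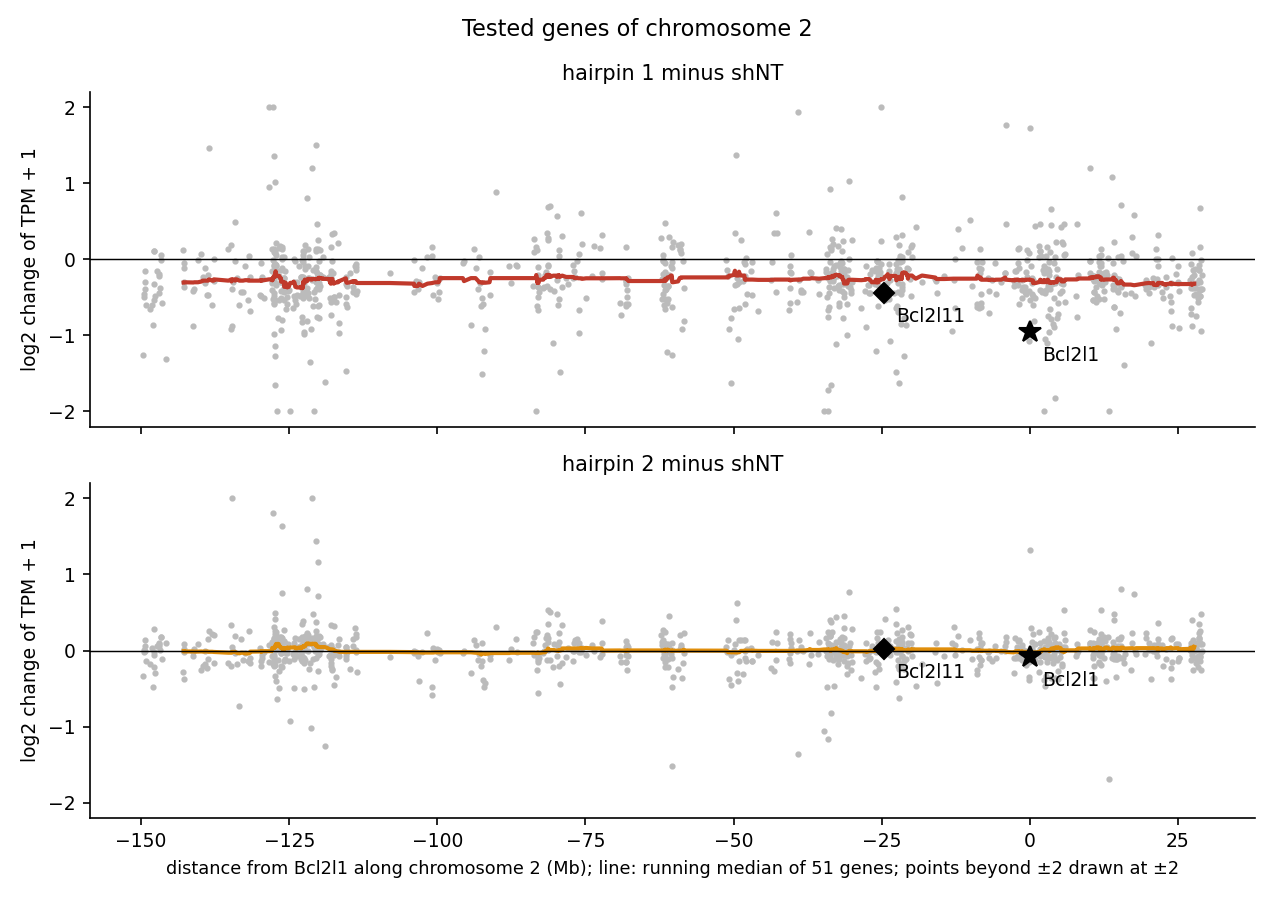
Log2 change of TPM + 1 of each tested gene of chromosome 2 (grey points) against its distance from Bcl2l1 in Mb, drawn at the edge beyond 2 in either direction, with a running median over neighbouring genes (coloured line), for hairpin 1 minus shNT (top) and hairpin 2 minus shNT (bottom); the star is Bcl2l1 and the diamond Bcl2l11. The hairpin 1 line stays below 0 along the whole chromosome, around the chromosome median of -0.27, and Bcl2l1 lies well below it at -0.95; the hairpin 2 line stays near 0.

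Bid (chromosome 6, 120891930 to 120916853, minus strand), whose protein is cut by caspase-8 into a form that activates BAK and BAX, was the member that rose with hairpin 2. It had 24.9 and 24.5 TPM with hairpin 1, 33.3 and 32.7 TPM with hairpin 2, against 26.5 and 25.7 TPM with shNT. The hairpin 2 libraries were highest, and the hairpin 1 libraries lay just below the controls. Bid rose by 0.33 ± 0.04 with hairpin 2 (log2, SE; limma adjusted p = 0.0210), while with hairpin 1 its change was -0.08 (95% interval -0.19 to 0.03; limma adjusted p = 0.180). With median-ratio scaling that hairpin 1 change was -0.17 (limma adjusted p = 0.0303), and with chromosomes centred it was -0.27 (limma adjusted p = 0.0058), both called lower, in a range of 0.0058 to 0.442 over the alternatives. The difference between hairpins, 0.41 ± 0.04 with hairpin 2 higher (limma adjusted p = 0.00168), passed under all 18 alternatives. The hairpin 2 call itself ended after chromosome centring (0.22, limma adjusted p = 0.0562) and without small-RNA entries (0.20, limma adjusted p = 0.336). It also ended when either hairpin 1 library (limma adjusted p = 0.0652 and 0.0653) or either hairpin 2 library (0.157 and 0.144) was dropped, in a range of 0.0132 to 0.336. Bid overlaps Bcl2l13 on the other strand, which stood at 20.4 and 20.9 TPM with hairpin 1, 19 and 18.4 TPM with hairpin 2, against 18.5 and 17.4 TPM with shNT.

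Pmaip1 (chromosome 18, 66458533 to 66465565, plus strand) encodes NOXA, a BH3-only protein that binds chiefly MCL1. It had 21.0 and 21.2 TPM with hairpin 1, 18.6 and 18.2 TPM with hairpin 2, against 20.6 and 20.9 TPM with shNT. The hairpin 2 libraries were lowest, and the hairpin 1 libraries lay just above the controls. Its change was 0.02 with hairpin 1 (95% interval -0.09 to 0.13; limma adjusted p = 0.722) and -0.17 with hairpin 2 (95% interval -0.28 to -0.06; limma adjusted p = 0.0663). After median-ratio scaling the hairpin 2 change was -0.26 and passed (limma adjusted p = 0.0336, in a range of 0.0336 to 0.280). The hairpins differed by -0.19 ± 0.04, hairpin 2 lower (limma adjusted p = 0.0200), a call that ended when any 1 of the 4 hairpin libraries was left out (limma adjusted p = 0.0858 to 0.116) and once small-RNA entries were removed (0.301), over a range of 0.0174 to 0.301.

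**Figure D4:**
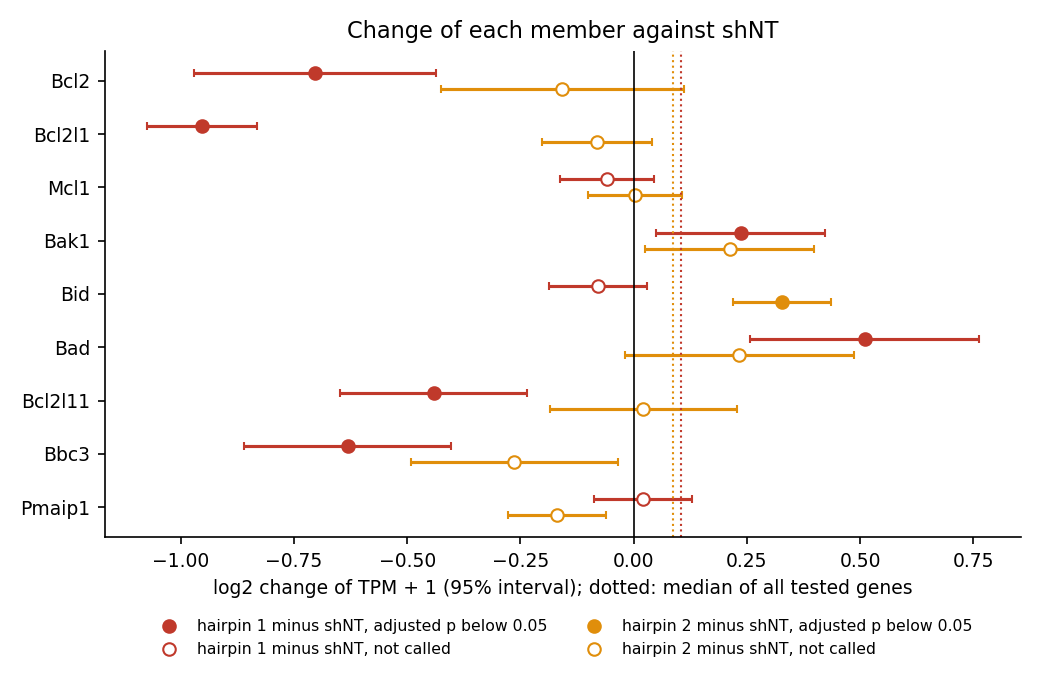
Log2 change of TPM + 1 against shNT for the 9 tested members, with 95% intervals, for hairpin 1 (upper point of each pair) and hairpin 2 (lower); filled points passed at an adjusted p below 0.05 and dotted lines are the medians of all tested genes, 0.11 and 0.09. The 4 hairpin 1 points of Bcl2, Bcl2l1, Bcl2l11 and Bbc3 lie at -0.44 or lower, and the filled hairpin 2 point is that of Bid.

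With hairpin 2, 1 of the 9 tested members rose (Bid) and limma called 0 lower. Across all genes 9.63% were called, 6.62% higher and 3.0% lower, so the members' count is near the background. At an unadjusted p under 0.05 there were 2 members higher and 2 lower, and 3737 of the 11549 genes in either direction. The median change of the members was 0.00, against 0.09 for all genes. The count of all genes called, 1112, moved to 2647 without shNT replicate 2, to 119 and 109 without hairpin 1 replicates 1 and 2, and to 6 and 11 without hairpin 2 replicates 1 and 2, so the hairpin 2 calls rest on few libraries. Between the hairpins, 6 of 9 members differed, 5 higher and 1 lower with hairpin 2, against 40.1% of all genes, 19.9% higher and 20.2% lower. That count of members was 2 when hairpin 1 replicate 2 was left out and 3 when either hairpin 2 library was.

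For the knockdown as a whole, the mean of both hairpins minus shNT, 3 members rose (Bad by 0.37, Bak1 by 0.22 and Bid by 0.12) and 3 fell (Bcl2l1 by 0.52, Bbc3 by 0.45 and Bcl2 by 0.43, log2), with limma adjusted p between 0.00142 and 0.0461. Over all genes 39.4% were called, 27.3% higher and 12.1% lower, and the median change was 0.10. Bid, at percentile 54.8 of all changes, thus lay near the typical gene. Of 18 alternatives, 11 lost the Bid call and 3 turned its sign, while 13 lost the Bak1 call and 1 turned its sign. The Bad call was lost in 6, that of Bcl2 in 4 and those of Bcl2l1 and Bbc3 in 1 each. The split of members also depended on the scaling. It was 1 higher and 5 lower after median-ratio scaling or quantile normalization and 0 higher and 4 lower without small-RNA entries. These means join hairpins that differ for most of the members named. With both hairpins pooled as 1 group, so that their difference enters the spread, limma called 0 of the 9 members, with 3 at an unadjusted p under 0.05, and 1 gene of the whole table. The member count was 3 when shNT replicate 2 was left out, 3 or 2 when replicate 1 or 2 of hairpin 1 was, and 3 or 2 when replicate 1 or 2 of hairpin 2 was.

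**Figure D5:**
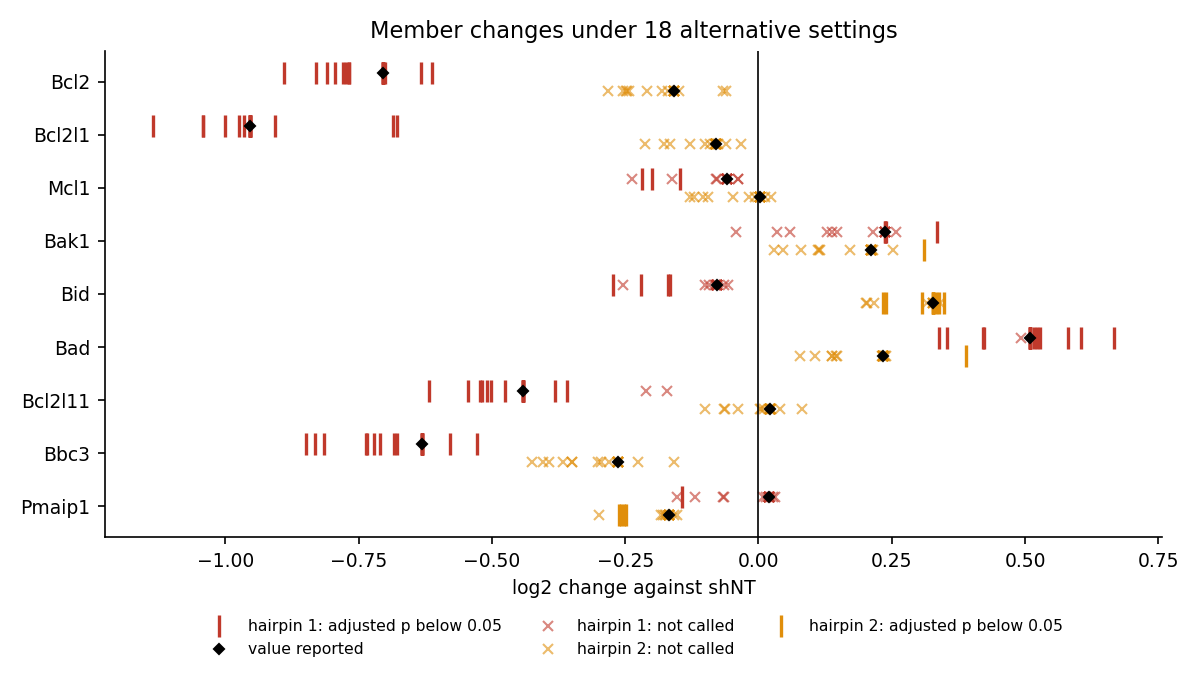
Log2 change of each tested member against shNT under 18 alternative settings, for hairpin 1 (upper row of each pair) and hairpin 2 (lower row); vertical ticks passed at an adjusted p below 0.05, crosses did not, and the black diamond is the value reported. Bcl2, Bcl2l1 and Bbc3 show ticks alone for hairpin 1, while Bak1 is mostly crosses in both rows.

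Other genes related to BCL2 included another effector, BAX, which was higher with hairpin 1. Of 15 listed genes, 9 were tested. With hairpin 1, 5 rose (Bnip3, Bax, Bcl2l12, Bcl2l13 and Bnip3l) and 1 fell (Bcl2l15), against 32.1% of all genes higher and 18.1% lower. Without small-RNA entries, 2 rose and 1 fell. The median change of the list was then 0.02, against -0.06 for all genes, in place of 0.19 and 0.11. After median-ratio scaling, or without any 1 of the 4 hairpin libraries, 3 rose and 1 fell. Bax, which forms pores alongside BAK, had 177 and 183 TPM with hairpin 1, 156 and 167 TPM with hairpin 2, against 119 and 138 TPM with shNT. All 4 knockdown libraries lay above both controls. Bax rose by 0.48 ± 0.08 with hairpin 1 (log2, SE; limma adjusted p = 0.00506), while the hairpin 2 change of 0.33 missed the threshold (limma adjusted p = 0.0577). The median gene of its chromosome, 7, stood at 0.22 with hairpin 1 and at 0.14 with hairpin 2. Over the alternatives the hairpin 1 change of Bax was 0.27 to 0.59. Bnip3, a hypoxia-induced BH3-like protein of mitophagy, rose by 1.86 ± 0.20 with hairpin 1, at 16.3 and 10.8 TPM with hairpin 1, against 2.51 and 3.43 TPM with shNT. Bcl2l15, a little studied relative, fell by 1.43 ± 0.09, at 0.775 and 0.731 TPM with hairpin 1, against 3.74 and 3.70 TPM with shNT. With hairpin 2 limma called 0 of the 9 higher, with 2 at an unadjusted p under 0.05, and 1 lower: Bmf, a BH3-only protein, had 1.49 and 1.46 TPM with hairpin 2, against 2.44 and 2.44 TPM with shNT. Bmf fell by 0.48 ± 0.09 (limma adjusted p = 0.0365), and this call was lost when any 1 of the 6 libraries was left out, in a range of 0.0264 to 0.179. The leukocyte paralogs Bcl2a1a, Bcl2a1b and Bcl2a1d were listed at 0 in all 6 libraries; they are near-identical copies, so their values are uncertain.

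Downstream of the family, among 24 genes of the caspase cascade and its inhibitors, 23 were tested. With hairpin 1, 12 rose and 2 fell in deposited TPM, against 32.1% and 18.1% of all genes. After median-ratio scaling 7 rose and 4 fell, and without small-RNA entries 3 rose and 5 fell, so the split of calls in this list rests on the scaling. The number that rose was also 5 without hairpin 1 replicate 1 and 6 without hairpin 1 replicate 2, and 8 without either hairpin 2 library. The median change was 0.26, against 0.11 for all genes. It was 0.17 against 0.02 after median-ratio scaling and 0.08 against -0.06 without small-RNA entries. Dffa, the inhibitor and chaperone of the caspase-activated DNase, rose by 0.78 ± 0.10, at 14.6 and 15 TPM with hairpin 1, against 7.76 and 8.70 TPM with shNT. Htra2, a mitochondrial protease that antagonises inhibitors of apoptosis, rose by 0.55 ± 0.07 with hairpin 1 and by 0.49 ± 0.07 with hairpin 2. It had 55.0 and 54.5 TPM with hairpin 1, 49.9 and 55.8 TPM with hairpin 2, against 35.4 and 39.1 TPM with shNT. Birc3, encoding the inhibitor of apoptosis cIAP2, fell by 0.48 ± 0.07 with hairpin 1 and fell by 0.52 ± 0.07 with hairpin 2, at 4.61 and 4.62 TPM with hairpin 1, 4.52 and 4.45 TPM with hairpin 2, against 7.12 and 6.56 TPM with shNT.

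With hairpin 2, 2 genes of this caspase list rose (Htra2 and Casp2) and 2 fell (Birc3 and Tnfrsf10b), and the count was 0 without either hairpin 1 library or either hairpin 2 library and 8 higher and 2 lower without shNT replicate 2. The death receptor gene Tnfrsf10b fell by 0.31 ± 0.05 with hairpin 2 (limma adjusted p = 0.0279), at 23.9 and 22.6 TPM with hairpin 2, against 29.7 and 28.6 TPM with shNT. Birc3 (limma adjusted p = 0.0207), Htra2 (0.0253) and Tnfrsf10b kept their direction with hairpin 2 under all alternatives, with limma adjusted p of up to 0.146, 0.151 and 0.165.

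Upstream, 19 of 20 genes known to act on members were tested, with a median change of 0.02 with hairpin 1. With hairpin 1, 3 rose and 5 fell, a total of 8 called against 50.2% of all genes. Without hairpin 1 replicate 1, 1 rose and 4 fell, and without hairpin 1 replicate 2, 2 rose and 3 fell. Atf3, a stress-induced transcription factor, fell by 1.16 ± 0.09 (log2, SE), at 1.49 and 1.45 TPM with hairpin 1, against 4.40 and 4.61 TPM with shNT. Myc, which sensitises cells to apoptosis, fell by 0.49 ± 0.09, at 71.1 and 67.3 TPM with hairpin 1, against 106 and 89.5 TPM with shNT. Mapk3, encoding ERK1, rose by 0.66 ± 0.08, at 159 and 158 TPM with hairpin 1, against 108 and 92.8 TPM with shNT. With hairpin 2 limma called 0 of the 19, with 3 higher and 2 lower at an unadjusted p under 0.05. It called 1 higher without shNT replicate 1 and 2 lower without shNT replicate 2.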

How the data were processed

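RNA was measured in 6 libraries of KPCY cells, 2 each for hairpin 1, hairpin 2 and shNT, grouped by their titles; the table's control columns were read as shNT and their numbers as replicates. The authors deposited a TPM table of 24493 genes, scaled to 1000000 in each library. The submitters' processing notes name Salmon, DESeq2, R 3.5 and the build mm10, and what DESeq2 did is not given in the sources used here. Salmon's TPM hold no read depth, so no counting interval can be given.

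The 11549 genes that reached 1 TPM in 2 or more libraries were tested as log2(TPM + 1) with limma 3.58.1 in R 4.3.3, a scale that understates changes of low genes. One fit of all 6 libraries had a mean for each of the 3 groups and a variance prior with a trend, with Benjamini-Hochberg adjustment and a threshold of 0.05. It was checked on simulated data. Positions came from GENCODE M21 (mm10), which with RefSeq symbols placed 99.9% of tested genes. Promoters came from RefSeq; all 10 members, Pthlh, the 3 called genes with the largest absolute change in each list per hairpin and the 3 genes most like the most variable member were named. The leukocyte paralogs, Bcl2l2, Mir6236, Casp2 and the other called list genes were named after their values were seen. The members and lists were chosen with earlier results of these data known. Alternatives covered pseudocounts of 0.1 and 0.5, the filter, scaling, chromosome centring, the variance prior, a replicate block, the groups in the fit, pooled hairpins and each library left out. Centring on neighbours within 5 Mb was chosen after seeing the data, with its p adjusted among the chromosome-centred values.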

Additional observations from a re-analysis of the deposited data

Results flagged for a closer look

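For 6 members the response differed between the hairpins by limma's test of hairpin 2 minus hairpin 1 itself. The difference was 0.87 for Bcl2l1, 0.55 for Bcl2, 0.46 for Bcl2l11, 0.41 for Bid, 0.37 for Bbc3 and -0.19 for Pmaip1 (log2), with limma adjusted p between 0.000274 and 0.0260; over all genes 40.1% were called. With hairpin 1 replicate 2 left out 2 members were called, and with either hairpin 2 library left out 3. The calls of Bcl2, Bcl2l11, Bbc3 and Pmaip1 were each lost in some alternatives, while those of Bcl2l1 and Bid were kept in all 18. For Bid, hairpin 2 lay above shNT and hairpin 1 did not, and for Bcl2l1, Bcl2, Bcl2l11 and Bbc3 hairpin 1 lay below both hairpin 2 and shNT. Hairpin and parental clone cannot be told apart in this design.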

How the results depend on the processing

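Bcl2, Bcl2l1 and Bbc3 with hairpin 1, and the hairpin differences of Bcl2l1 and Bid, kept direction and call under all 18 alternatives. Genes called with hairpin 1 were 3704 to 6161 with 1 library left out, and members called 4 to 6. With hairpin 2, 585 genes were called without the filter, 729 after quantile normalization, 522 without small-RNA entries, 523 after chromosome centring, 130 with only the groups compared and 6 to 2647 with 1 library left out. Members called with hairpin 2 were 2 after median-ratio scaling and 2 after quantile normalization, 0 without small-RNA entries, 0 with only the groups compared and 0 to 2 with 1 library left out. For the knockdown, 2912 genes were called without small-RNA entries, 3019 after chromosome centring, 1 with hairpins pooled (2567 at an unadjusted p under 0.05) and 2742 to 4880 with 1 library left out, with 0 members pooled and 2 to 5 with 1 left out. Between hairpins the leave-one-out ranges were 2380 to 5681 genes and 2 to 7 members. Replicate numbers did not pair the libraries (correlations of 0.0211, 0.0152 and -0.0439 between same-numbered deviations); with a replicate block, 5585 genes were called with hairpin 1, 276 with hairpin 2, 4215 for the knockdown and 4200 between hairpins, and the calls of Bak1 with hairpin 1 and of Bak1 and Bid for the knockdown were lost. Scaling moved the share of calls that were higher: 63.8% with hairpin 1 became 50.8% after median-ratio scaling, 49.0% after quantile normalization, 37.6% without small-RNA entries and 48.5% after chromosome centring. For hairpin 2, 68.8% became 29.9%, 32.4%, 28.4% and 34.0% under the same settings, and for the knockdown 69.2% became 46.5%, 46.1%, 33.1% and 45.2%. Pthlh was at -0.76 for the knockdown (limma adjusted p = 0.0120) and missed the threshold with hairpins pooled (-0.76, limma adjusted p = 0.0980). Its change was -0.84 to -0.67 with 1 library left out, and its call was lost without shNT replicate 2 or either hairpin 1 library. Signs turned, in values without a call except Bid and Bak1 for the knockdown, Bak1 with hairpin 1 and the neighbour-centred Pmaip1. Pmaip1 with hairpin 1 was -0.066 (median-ratio), -0.067 (quantile), -0.15 (without small-RNA entries), -0.12 (chromosome centring) and -0.14 (neighbour centring). Mcl1 with hairpin 2 was -0.094, -0.12, -0.13, -0.048 and -0.10 under those settings, and -0.018 to 0.024 with 1 library left out. Bcl2l11 with hairpin 2 was -0.065, -0.063 and -0.0995 under the first 3, and -0.039 to 0.081 with 1 left out. Bid for the knockdown was -0.026 without small-RNA entries, -0.037 after chromosome centring and -0.00091 after neighbour centring. Bak1 after neighbour centring was -0.041 with hairpin 1 and -0.011 for the knockdown. The Bak1 hairpin difference was 0.021 without small-RNA entries, 0.014 after chromosome centring, 0.023 after neighbour centring and -0.064 to 0.015 with 1 left out. The causes were not tested. TPM hold no depth, so counting error is unknown.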
